A study of Mus musculus with 12 samples.

Results

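A set of 46 Wnt pathway genes was followed in RNA-seq of mouse cochlear epithelium, which lines the duct of the hearing organ, at embryonic day 16.5. The 46 members were taken by name from the 22869 gene symbols of the deposited table: 15 Wnt ligands, 10 receptors, 9 target and feedback genes, 9 secreted inhibitors and 3 R-spondins. The embryos were 3 Esrp1-/- knockouts, which lack a splicing factor of epithelial cells, and 3 Esrp1+/+ wild-type controls, all given as C57BL/6, with no treatment named. The epithelium was dissected by hand, and collagenase P (0.1 mg/ml, 37 °C, 15 min) served to strip the mesenchyme. Both cochleae of an embryo were pooled, so that each value below is 1 embryo, a biological replicate, and p-values measure the spread between embryos.

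Wnt ligands are secreted, lipid-modified proteins that bind Frizzled receptors. With the co-receptors Lrp5 and Lrp6 this stabilises beta-catenin, which joins TCF/LEF factors at target genes. Several targets encode proteins that damp the pathway again. In the developing cochlea canonical signalling is known for its part in the growth of the prosensory domain and the making of hair cells, and Wnt5a with planar polarity proteins for the orientation of hair cells and the lengthening of the duct.

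Reads on genes numbered 12547301 to 18473139 in knockouts and 16411205 to 21568517 in controls, and 14717 genes had enough reads to be tested. Esrp1 (chromosome 4, 11331933 to 11386783, mm10) had 27.2, 34.3 and 39.1 CPM (reads scaled to library size by TMM) in knockouts, against 197, 102 and 118 CPM in controls. It fell by 2.05 ± 0.26 (SE) on the log2 scale in the quasi-likelihood test of edgeR, with an adjusted p = 0.0354. The epithelial marker Epcam was at 390 to 502 CPM in knockouts and 269 to 536 CPM in controls, and markers of periotic mesenchyme were present in every embryo, at a summed 3222 to 3258 CPM in knockouts and 2383 to 3545 CPM in controls. The Y-linked gene Ddx3y was at 95.0 and 81.9 CPM in knockouts 2 and 3, against 0.84 CPM in knockout 1 and 0.65 to 0.91 CPM in controls, and knockout 1 and the 3 controls had Xist (1098 CPM in knockout 1 and 1312 to 1808 CPM in controls), so that sex differed within and between the groups. Knockout 1 and control 1 had the highest immediate early gene sums, 313 CPM against 113 to 132 CPM in the other knockouts and 835 CPM against 135 to 143 CPM in the other controls. Knockout 1 also held reads of Otop1 (121) and Nox3 (60), otoconial genes of the vestibular organs chosen after their values were seen, where the other 5 embryos had 0 to 2 reads of each.

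Most of the Wnt machinery was present in both groups. In the fit of all 6 embryos, 30 of the 40 members tested had a log2 fold change within 0.5 of 0. Among them were every receptor and every target gene. The larger differences were in secreted components: Wnt4 and Rspo1 were higher in every knockout than in every control, and Wnt11, Frzb, Dkk2 and Rspo3 were lower. Of the 46 members, 40 were tested and 0 passed an adjusted p of 0.05 in edgeR's quasi-likelihood test, where 22 of all 14717 genes did (0.149%, of which 0.0815% higher and 0.0679% lower). At an unadjusted p under 0.05 were 8 members (4 higher, 4 lower), 20.0% of those tested, beside 4.77% of all genes (2.87% higher and 1.90% lower). Groups that did not overlap in CPM were seen for 6 tested members (2 higher and 4 lower, 15.0%), beside 9.84% of all genes (5.40% higher and 4.44% lower). DESeq2 called 1 member higher (Wnt4) and 3 lower (Frzb, Dkk2 and Rspo3), where 1.04% of all genes were called (0.657% higher and 0.382% lower), and the same 4 had an FDR under 0.05 in the authors' deposited table, as had 0.775% of its transcript rows. The median log2 fold change over the 40 members was -0.01, beside 0.0016 over all genes.

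**Figure D1:**
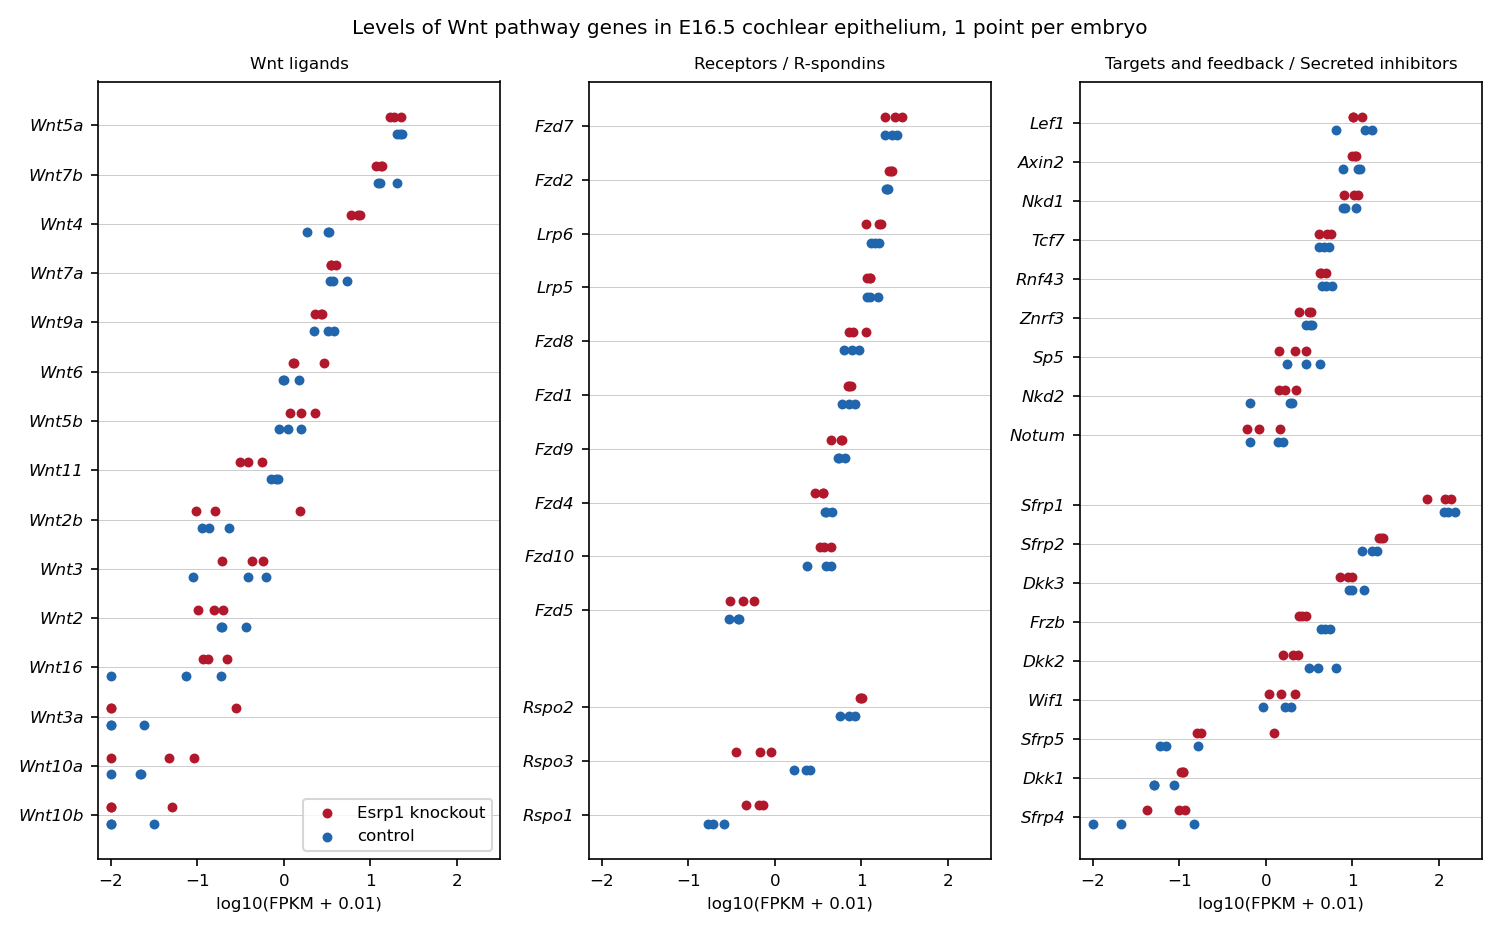
Level of each of the 46 members on the x axis as log10(FPKM + 0.01), 1 point per embryo, knockouts in red above controls in blue, in panels by role. Sfrp1 had the highest level of the set, with a mean of 110 FPKM in knockouts and 133 FPKM in controls, and 10 tested members have points apart by group (Wnt4, Rspo1, Rspo2, Sfrp2 and Fzd2 higher in knockouts, Wnt11, Frzb, Dkk2, Rspo3 and Fzd4 lower), as has Dkk1, which was too low to test.

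**Figure D2:**
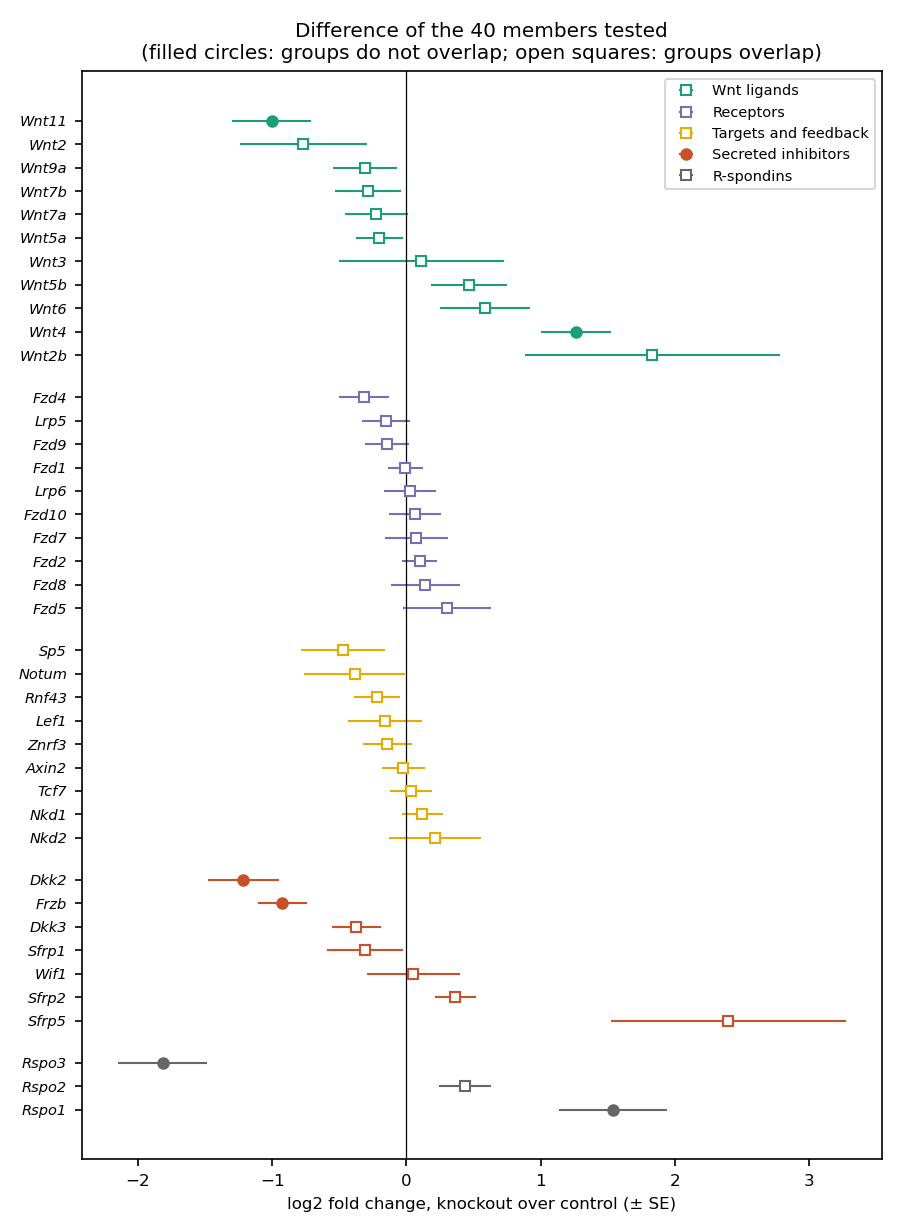
Log2 fold change, knockout over control, of the 40 members tested, with SE as bars, by role. Filled circles mark the 6 members whose groups did not overlap in CPM, and receptors and targets all lie within 0.5 of 0.

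Among the ligands, levels per length were led by Wnt5a, a largely non-canonical ligand. Its level was 16.9, 18.7 and 22.6 FPKM (reads scaled to transcript length and library size) in knockouts, against 21.7, 20.5 and 23.2 FPKM in controls. The groups overlapped, and the difference was -0.20 ± 0.17 on the log2 scale (SE, adjusted p = 0.994 by edgeR). Wnt7b, a ligand of epithelia, came next with 12.8 ± 1.00 FPKM in knockouts and 15.1 ± 4.55 FPKM in controls (SD, n = 3 each). In knockouts Wnt4 ranked 3, with 5.97 to 7.62 FPKM, below every Wnt7b value and above every value of Wnt7a (3.45 to 3.95 FPKM). In controls Wnt4 ranked 5, at 1.81 to 3.31 FPKM, a range that overlapped that of Wnt9a (2.20 to 3.75 FPKM) but not that of Wnt7a (3.35 to 5.36 FPKM). Wnt4 made up 11.7%, 15.0% and 14.2% of the summed ligand FPKM in knockouts, against 5.56%, 4.12% and 6.51% in controls.

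Wnt4 (chromosome 4, 137277635 to 137299501) encodes a ligand best known from kidney and gonad development. It had 46.7, 59.3 and 67.9 CPM in knockouts, against 29.8, 14.9 and 27.8 CPM in controls. The lowest knockout lay above the highest control. Wnt4 was 2.40-fold higher in knockouts by the fit, a log2 fold change of 1.27 ± 0.26 (SE, unadjusted p = 0.00105, adjusted p = 0.196 in edgeR's quasi-likelihood test). DESeq2 gave it an adjusted p = 0.000881, and the authors' deposited table a log2 fold change of 1.25 with an FDR of 0.000377. Permuting the 3 knockouts and 3 controls (exact test, two-sided) gave p = 0.10 for Wnt4 and likewise for Rspo3, Frzb and Dkk2, and no smaller p is possible with these group sizes. Summed markers of Reissner's membrane and the roof of the duct were higher in every knockout, as was Wnt4. The sums were 10537, 8428 and 10735 CPM in knockouts, against 6756, 3110.5 and 4020 CPM in controls. The order of the 3 knockouts differed between this sum and Wnt4, while that of the 3 controls was the same. Most of each sum was Oc90, with 10345, 8220 and 10497 CPM in knockouts, against 6619, 3038 and 3919 CPM in controls. Of these 5 markers, 4 had groups apart (Otx2, Oc90, Vmo1 and Slc26a7) and Slc26a7 passed the test, and none was at 0 in every embryo. Slc26a7 had the order of Wnt4 in both groups, at 60.1, 74.1 and 100 CPM in knockouts, against 28.4, 18.8 and 25.7 CPM in controls. Otx2, Oc90, Vmo1 and Fgf9 had the order of Wnt4 in controls only. The part of the 5 markers in the Wnt4 difference was not tested. In bulk RNA, more or fewer cells of a type and more or less RNA per cell cannot be told apart.

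Wnt11 (chromosome 7, 98835084 to 98854747), a ligand of convergent extension movements, differed the other way at a low level. It had 3.05, 1.83 and 2.47 CPM in knockouts, against 5.39, 4.94 and 4.31 CPM in controls. All knockouts lay below all controls, with a log2 fold change of -1.0 ± 0.29 (SE, adjusted p = 0.539 by edgeR). It rested on 34 to 40 reads per knockout and 80 to 109 reads per control.

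For Wnt4 and Wnt11, the ligands whose groups stood apart, the 250 bases before a RefSeq transcription start (GRCm38.p6, both on the plus strand) are shown, Wnt4 at chr4:137277385-137277634 and Wnt11 at chr7:98834862-98835111. Capitals in the Wnt11 sequence mark ATCAAAG, which is the TCF/LEF motif CTTTGAT on the other strand, 51 bases before the start.
Wnt4: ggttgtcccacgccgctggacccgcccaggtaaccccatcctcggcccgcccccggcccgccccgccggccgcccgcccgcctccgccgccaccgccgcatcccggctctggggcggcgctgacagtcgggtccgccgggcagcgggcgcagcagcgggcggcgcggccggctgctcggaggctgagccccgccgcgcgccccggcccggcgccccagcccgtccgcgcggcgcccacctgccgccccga
Wnt11: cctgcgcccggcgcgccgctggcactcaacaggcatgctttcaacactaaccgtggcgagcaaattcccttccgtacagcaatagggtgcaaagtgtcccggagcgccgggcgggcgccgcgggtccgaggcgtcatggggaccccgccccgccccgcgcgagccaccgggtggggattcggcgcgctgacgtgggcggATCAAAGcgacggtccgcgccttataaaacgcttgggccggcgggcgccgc
The motifs searched on both strands were CTTTGAA or CTTTGAT for TCF/LEF factors, TAATCC for OTX factors and AAGGTCA for the oestrogen-related receptors, and no match shown overlapped another. The Wnt4 window, 85.2% G and C with 44 CpG, held none of these letters. A second Wnt11 start (window chr7:98838595-98838844) had the OTX letters 229 bases before it.

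The other 9 ligands tested had overlapping groups and adjusted p-values of 0.994. Wnt7a, Wnt7b and Wnt9a had log2 fold changes of -0.22, -0.29 and -0.31, and each was highest in control 1. Wnt7b showed this with 102, 93.7 and 116 CPM in knockouts, against 183, 96.2 and 102 CPM in controls. Wnt5b, a close relative of Wnt5a, and Wnt6 had log2 fold changes of 0.47 and 0.59, each highest in knockout 1. Wnt2b rested on 1 embryo, with 12.4, 0.75 and 1.40 CPM in knockouts, against 2.13, 0.86 and 1.08 CPM in controls. The canonical ligand gene Wnt3 overlapped widely, at 1.33 to 3.66 CPM in knockouts and 0.63 to 3.99 CPM in controls. Wnt2 was at 0.47 to 0.91 CPM in knockouts and 0.86 to 1.78 CPM in controls. The other 4 ligands had too few reads to test. Wnt3a, another canonical ligand gene, had 22, 0 and 0 reads in knockouts and 0, 2 and 0 reads in controls, so that all of its knockout reads came from knockout 1, the embryo with Otop1 and Nox3 reads. Wnt10a and Wnt10b had 0 to 4 reads in any embryo, and Wnt16 had 6 to 9 reads in knockouts and 0 to 12 in controls. A count of 0 allows, at 3 reads, up to 0.162 to 0.239 CPM in a knockout and 0.139 to 0.183 CPM in a control. These floors cover counting error only and, unlike the other CPM values, were scaled to reads on genes without TMM.

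All 10 receptors were tested and overlapped between the groups in CPM, with log2 fold changes of -0.31 to 0.30 and no adjusted p below 0.994 (edgeR's quasi-likelihood test). Fzd7 had the highest receptor level, 18.9, 24.3 and 29.4 FPKM in knockouts, against 25.7, 19.0 and 22.6 FPKM in controls. Its highest and lowest embryos were both knockouts, and its log2 fold change was 0.07 ± 0.23 (SE). Fzd2 followed with 21.8 ± 1.07 FPKM in knockouts and 19.8 ± 0.61 FPKM in controls, then the co-receptor gene Lrp6 with 14.7 ± 2.93 FPKM in knockouts and 14.4 ± 1.54 FPKM in controls (SD, n = 3 each). The related Lrp5 had 12.2 ± 0.59 FPKM in knockouts and 13.2 ± 1.97 FPKM in controls (SD, n = 3 each). The ranges of Fzd7 and Fzd2 overlapped, as did those of Lrp6 and Lrp5, while Fzd2 lay above Lrp6 in every embryo. Fzd8, Fzd1, Fzd9, Fzd10 and Fzd4 had means of 3.37 to 8.86 FPKM in knockouts and 3.55 to 7.80 FPKM in controls. Fzd5 was the scarcest Frizzled gene, at 0.43 ± 0.14 FPKM in knockouts and 0.34 ± 0.05 FPKM in controls (SD, n = 3 each). Fzd4, which also binds the non-Wnt ligand norrin, had the smallest unadjusted p of the receptors (0.127, edgeR's quasi-likelihood test). It had 21.7, 29.1 and 30.8 CPM in knockouts, against 40.9, 29.9 and 30.8 CPM in controls, so that knockout 1 and control 1 lay at the ends of an otherwise narrow range.

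Target and feedback genes, which read out canonical signalling, overlapped between the groups in all 9 cases, with log2 fold changes of -0.47 to 0.21 and adjusted p-values of 0.994. Axin2, a negative feedback scaffold and the most used reporter of the pathway, had 86.7, 102 and 107 CPM in knockouts, against 81.2, 105 and 114 CPM in controls. The values interleaved, and its log2 fold change was -0.02 ± 0.16 (SE). Lef1, a partner of beta-catenin on DNA and the highest target at 11.1 ± 1.64 FPKM in knockouts and 12.4 ± 5.35 FPKM in controls (SD, n = 3 each), had 51.3, 70.8 and 58.1 CPM in knockouts, against 38.5, 87.6 and 74.8 CPM in controls. Both the lowest and the highest Lef1 values were controls. Sp5, a transcription factor gene switched on by Wnt signalling, had the smallest unadjusted p of these genes (0.165, edgeR's quasi-likelihood test), with 12.7, 10.1 and 7.01 CPM in knockouts, against 9.03, 18.7 and 13.5 CPM in controls. Its log2 fold change was -0.47 ± 0.31 (SE). It was -0.70 without control 1 and -0.92 without both embryos numbered 1 (adjusted p = 0.177 by edgeR for the latter). Without control 2 it was -0.19, and with Xist as a covariate -0.10. Control 1 was the lowest control for Sp5. Control 1 was also the lowest of the 6 embryos for Nkd2, an inhibitor of Dishevelled, at 5.58 CPM, with 11.9 to 15.9 CPM in knockouts and 14.2 to 15.1 CPM in the other controls. In the same embryo the 5 neuronal markers summed to 66.6 CPM, where the knockouts had 391 to 540 CPM and the other controls 350 to 629 CPM. Control 1 was also lowest for the Schwann cell sum, at 84.6 CPM, against 145 to 325 CPM in the other embryos. Its mesenchymal sum was lowest too, at 2383 CPM, against 3165 to 3545 CPM. Its epithelial sum was the highest, at 1681 CPM, against 864 to 1467 CPM. Whether any of these sums bears on the spread of the targets was not tested. The remaining targets had small log2 fold changes: Nkd1, a relative of Nkd2, 0.12, the TCF factor gene Tcf7 0.04, the ubiquitin ligase genes Rnf43 and Znrf3 -0.22 and -0.14, and Notum, which encodes an enzyme that removes the lipid from Wnts, -0.38.

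The Sp5 window (chr2:70474673-70474922, GRCm38.p6, plus strand) is shown as that of a textbook Wnt target. Capitals mark a TCF/LEF motif, CTTTGAT, 104 bases before the start.
Sp5: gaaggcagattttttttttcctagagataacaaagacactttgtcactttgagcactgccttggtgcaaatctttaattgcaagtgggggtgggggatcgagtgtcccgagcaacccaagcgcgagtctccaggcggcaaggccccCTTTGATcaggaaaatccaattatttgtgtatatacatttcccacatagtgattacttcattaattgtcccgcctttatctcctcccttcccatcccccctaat
These letters, or CTTTGAA, stood in the windows of 4 members (Dkk1, Sp5, Wnt11 and Wnt5b), 4 of the 40 windows of the 32 members matched, and in 7.48% of all 32851 RefSeq windows of this length. OTX letters stood in 4 of the 40 windows (6.25% of all windows) and AAGGTCA in 1, that of Tcf7 (4.08%).

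**Figure D3:**
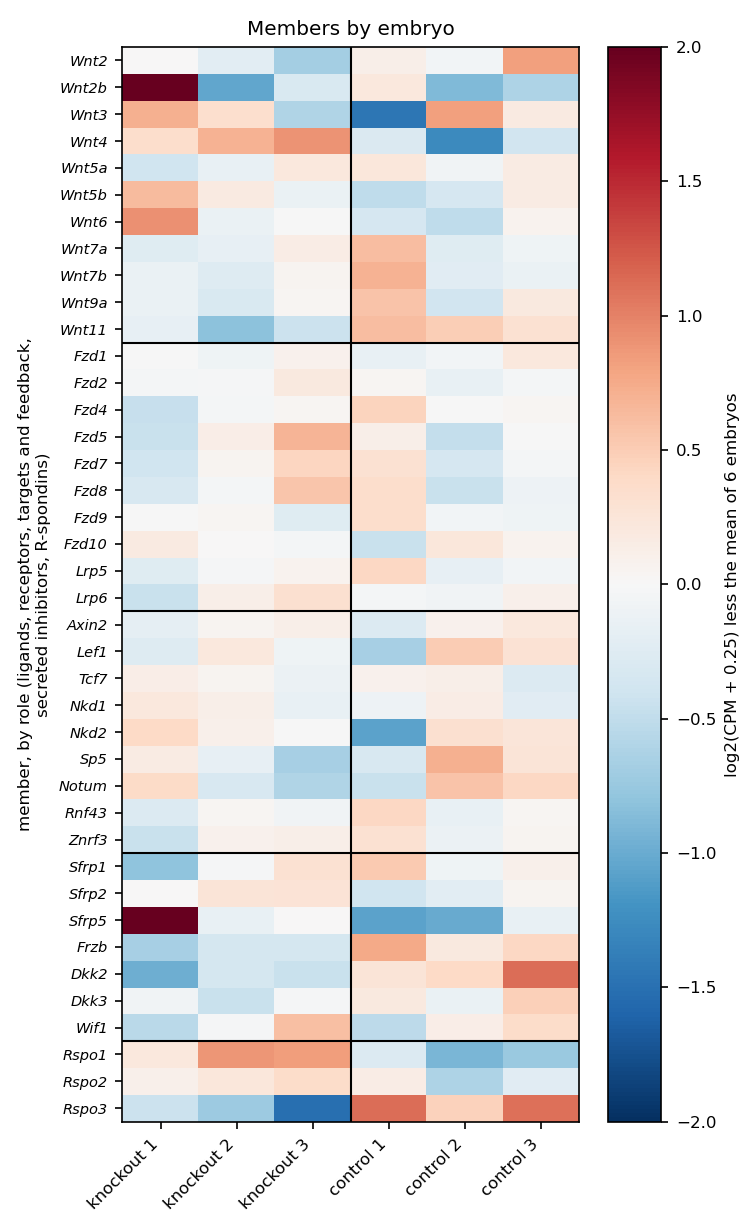
The 40 members tested (y axis, by role) in the 6 embryos (x axis), coloured by log2(CPM + 0.25) after each gene's mean was subtracted, with colours ending at 2 either way. Rspo3, Frzb, Dkk2 and Wnt11 are blue in all knockouts and red in all controls, Wnt4 and Rspo1 the reverse, while Wnt2b and Sfrp5 are deep red in knockout 1 alone.

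Secreted inhibitors held the highest level of the set and some of its larger differences. Sfrp1, a decoy that binds Wnts outside the cell, had 72.8, 117 and 139 FPKM in knockouts, against 154, 116 and 128 FPKM in controls. The low value was knockout 1, and the log2 fold change of -0.31 ± 0.28 (SE, adjusted p = 0.994 by edgeR) became -0.06 without that embryo and 0.13 without both embryos numbered 1. It was -1.05 with Xist as a covariate (adjusted p = 0.0983) and -1.02 for knockout 1 alone against the controls (adjusted p = 0.193), over a range of adjusted p from 0.0983 to 1.0. Sfrp2, a related decoy, had 83.5, 99.5 and 100.4 CPM in knockouts, against 63.0, 71.2 and 85.8 CPM in controls. Knockout 1 lay just below control 3, and the difference was 0.37 ± 0.15 on the log2 scale (SE, adjusted p = 0.980).

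Frzb (chromosome 2, 80411970 to 80447396), the gene of a further Frizzled-related decoy, was lower in every knockout. It had 15.8, 19.8 and 19.8 CPM in knockouts, against 42.8, 29.1 and 33.6 CPM in controls. No knockout reached the lowest control, and the difference was -0.93 ± 0.18 on the log2 scale (SE, unadjusted p = 0.000754, adjusted p = 0.166 by edgeR). DESeq2's adjusted p was 0.00235, and the authors' deposited table gave a log2 fold change of -0.96 with an FDR of 0.00777.

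Dkk2 (chromosome 3, 132085266 to 132180304), whose product binds Lrp5 and Lrp6, had 12.0, 18.8 and 17.5 CPM in knockouts, against 28.6, 31.5 and 52.2 CPM in controls. The groups stood apart, with the wider spread among controls, and the difference was -1.21 ± 0.26 on the log2 scale (SE, unadjusted p = 0.00147, adjusted p = 0.237 by edgeR). DESeq2's adjusted p was 0.00197, and the authors' deposited table gave a log2 fold change of -1.26 with an FDR of 0.00105.

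The windows of these inhibitors are shown because both genes were lower together, Frzb at chr2:80447397-80447646 (GRCm38.p6, minus strand) and Dkk2 at chr3:132085042-132085291 (plus strand). Neither held any of the letters searched, so no base is in capitals.
Frzb: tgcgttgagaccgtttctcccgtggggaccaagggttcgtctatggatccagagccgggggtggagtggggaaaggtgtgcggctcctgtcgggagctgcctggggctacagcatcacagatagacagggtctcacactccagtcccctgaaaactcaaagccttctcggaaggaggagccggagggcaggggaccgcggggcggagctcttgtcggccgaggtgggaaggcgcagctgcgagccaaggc
Dkk2: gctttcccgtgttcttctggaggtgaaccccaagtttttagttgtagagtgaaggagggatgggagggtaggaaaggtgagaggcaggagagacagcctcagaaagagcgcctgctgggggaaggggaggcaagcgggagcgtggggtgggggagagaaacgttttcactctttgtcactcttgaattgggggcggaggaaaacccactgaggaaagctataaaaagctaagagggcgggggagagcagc
The windows differed in make-up, with 64.4% G and C and 16 CpG for Frzb and 55.6% and 7 CpG for Dkk2.

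Markers of strial marginal cells, the potassium-secreting cells of the lateral wall, were lower with these inhibitors and Rspo3, at a summed 153, 102 and 129 CPM in knockouts, against 289, 162 and 185 CPM in controls. Of the 5 markers Kcne1, Esrrb and Bsnd fell, and Bsnd had 0 CPM in knockouts 2 and 3. Kcnq1 had a log2 fold change of -0.91 with overlapping groups (adjusted p = 0.808 by edgeR). Lmx1a, which made up most of the knockout sums, had a positive log2 fold change (0.47, adjusted p = 0.994), at 134, 89.8 and 121 CPM in knockouts, against 109, 64.6 and 75.1 CPM in controls. All 5 melanocyte markers had negative log2 fold changes (median -0.89, 3 at an unadjusted p under 0.05 and 1 with groups apart), with overlapping sums of 62.2 to 132 CPM in knockouts and 115 to 201 CPM in controls. All 5 prosensory and supporting cell markers did too (median -0.79), with groups apart for Fgfr3, Prox1 and Hes5 and overlapping sums of 262 to 436 CPM in knockouts and 399 to 528 CPM in controls. No melanocyte, prosensory or supporting cell marker passed edgeR's test (smallest adjusted p = 0.63 for melanocytes and 0.512 for prosensory and supporting cells). Of the 5 hair cell markers 4 had negative log2 fold changes (median -0.35 over all 5), with groups apart for Pou4f3 and Myo6. Their sums stood apart, at 249, 223 and 227 CPM in knockouts, against 287, 275 and 304 CPM in controls. Most of each sum was Myo6, with 167, 183 and 175 CPM in knockouts, against 196, 217 and 221 CPM in controls. None of the 5 hair cell markers passed (smallest adjusted p = 0.676 by edgeR). Of 4 markers of Kolliker's organ and the tectorial membrane, Epyc fell (log2 fold change -1.47, adjusted p = 0.0144 by edgeR) and 3 had positive ones. The mesenchymal sum overlapped between groups, and 1 of its 10 genes had groups apart. The part of any of these cell types in the Frzb, Dkk2 and Rspo3 differences was not tested.

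The other inhibitors that were tested overlapped between the groups. Dkk3, a divergent Dickkopf family member, had a log2 fold change of -0.37 ± 0.18 (SE) and Wif1, the gene of a further Wnt-binding protein, 0.05 ± 0.35. Sfrp5 had 68, 13 and 12 reads in knockouts and 4, 6 and 13 reads in controls, so that its log2 fold change of 2.40 ± 0.87 (SE, adjusted p = 0.823 by edgeR) rested on knockout 1. Sfrp4 and Dkk1 were too low to test, with 2 to 8 reads in knockouts and 0 to 10 in controls for Sfrp4. Dkk1, like Dkk2 the gene of an Lrp5 and Lrp6 antagonist, had 6, 10 and 8 reads in knockouts and 4, 9 and 4 reads in controls. Scaled to library size these were 0.46, 0.54 and 0.53 CPM in knockouts, against 0.25, 0.41 and 0.22 CPM in controls, so that the groups did not overlap, on 24 reads in all knockouts and 17 in all controls.

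The R-spondins, which raise Wnt signalling by taking Rnf43 and Znrf3 away from the receptors, had log2 fold changes of both signs. Rspo3 (chromosome 10, 29453106 to 29535867) had 4.80, 3.87 and 2.14 CPM in knockouts, against 14.5, 9.12 and 14.4 CPM in controls. The highest knockout was well below the lowest control, and the log2 fold change of -1.82 ± 0.33 had the smallest p of all members (SE, unadjusted p = 0.000472, adjusted p = 0.134 in edgeR's quasi-likelihood test). DESeq2's adjusted p was 3.65e-05, and the authors' deposited table gave a log2 fold change of -1.85 with an FDR of 0.00013.

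Rspo1 (chromosome 4, 124986401 to 125009102) had 1.68, 2.85 and 2.74 CPM in knockouts, against 1.13, 0.64 and 0.75 CPM in controls. The groups did not overlap, but the values rested on 22 to 53 reads per knockout and 14 to 18 per control. The difference was 1.54 ± 0.40 on the log2 scale (SE, adjusted p = 0.380 by edgeR), and DESeq2's adjusted p was 0.171. Rspo1 and Wnt4, the tested members that were higher in every knockout, lie on chromosome 4, as does Esrp1. Also on chromosome 4 lie Slc26a7 (14502430 to 14621946), higher in knockouts, and the receptor gene Ror1 (100095791 to 100444806), lower in them. Of the further pathway genes on it, Dvl1 and Ctnnbip1 overlapped between the groups, with log2 fold changes of 0.13 and 0.007. A part of position in the differences of these genes was not tested.

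Rspo2 was the R-spondin gene with the highest level, at 9.84 ± 0.23 FPKM in knockouts and 7.08 ± 1.39 FPKM in controls (SD, n = 3 each), and stayed above Rspo3 and Rspo1 in every embryo. It had 71.7, 78.9 and 86.7 CPM in knockouts, against 74.5, 43.6 and 57.4 CPM in controls. Control 1 lay within the knockout range, and the difference was 0.44 ± 0.19 on the log2 scale (SE, adjusted p = 0.994 by edgeR). In FPKM, Rspo2, Sfrp2, Fzd2 and Fzd4 also had groups apart, which brings the tested members that did so to 10, against 6 in CPM, where 9.48% of all genes did so in FPKM (6.17% higher and 3.31% lower). Rspo3 was the second R-spondin in controls (2.16 ± 0.47 FPKM, SD, n = 3) and did not stand clear of Rspo1 in knockouts, where the means were 0.63 and 0.60 FPKM.

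**Figure D4:**
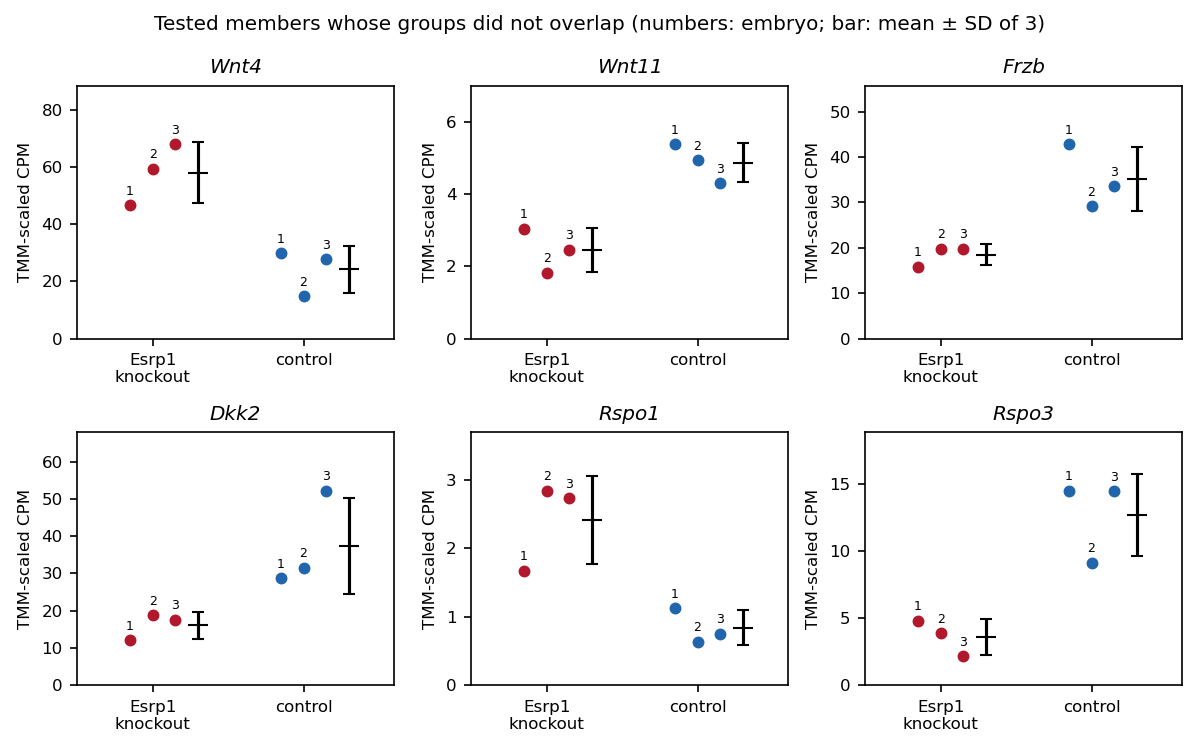
TMM-scaled CPM (y axis) of the 6 tested members whose groups did not overlap in CPM, with knockouts left of controls, 1 numbered point per embryo and the mean ± SD of 3 embryos as bars. Wnt4 and Rspo1 are higher in every knockout, and Wnt11, Frzb, Dkk2 and Rspo3 are lower in every knockout.

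These 6 differences kept their direction in all 14 alternative analyses, while their size moved. Because the 6 members were chosen for groups apart, leaving out embryos could hardly change the direction. The remaining alternatives used the same 6 embryos, so the kept direction is no independent support. Over the alternatives, the log2 fold change ran from 0.95 to 1.58 for Wnt4, -1.20 to -0.66 for Wnt11, -1.16 to -0.67 for Frzb, -1.66 to -0.90 for Dkk2, 0.99 to 1.99 for Rspo1 and -2.07 to -1.34 for Rspo3. The adjusted p ran from 0.000881 to 0.53 for Wnt4, 0.185 to 1.0 for Wnt11, 0.00235 to 0.471 for Frzb, 0.00197 to 0.568 for Dkk2, 0.0737 to 1.0 for Rspo1 and 3.65e-05 to 0.466 for Rspo3. The lowest was DESeq2's for Wnt4, Frzb, Dkk2 and Rspo3, and that without both embryos numbered 1 for Wnt11 and Rspo1. Without both embryos numbered 1, Wnt4 passed edgeR's test (log2 fold change 1.58, adjusted p = 0.0324), and 1.07% of the genes then tested did. In that setting the knockouts left had the high Ddx3y level and the controls left had Xist, so that sex and genotype cannot be told apart. When knockout 1, the knockout with Xist, was set alone against the controls, the log2 fold changes were 0.95 for Wnt4, -0.68 for Wnt11, -1.16 for Frzb, -1.65 for Dkk2, 1.00 for Rspo1 and -1.40 for Rspo3, with adjusted p-values of 0.189 to 0.428 in edgeR's quasi-likelihood test, in which the lone knockout was taken to vary like the controls.

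**Figure D5:**
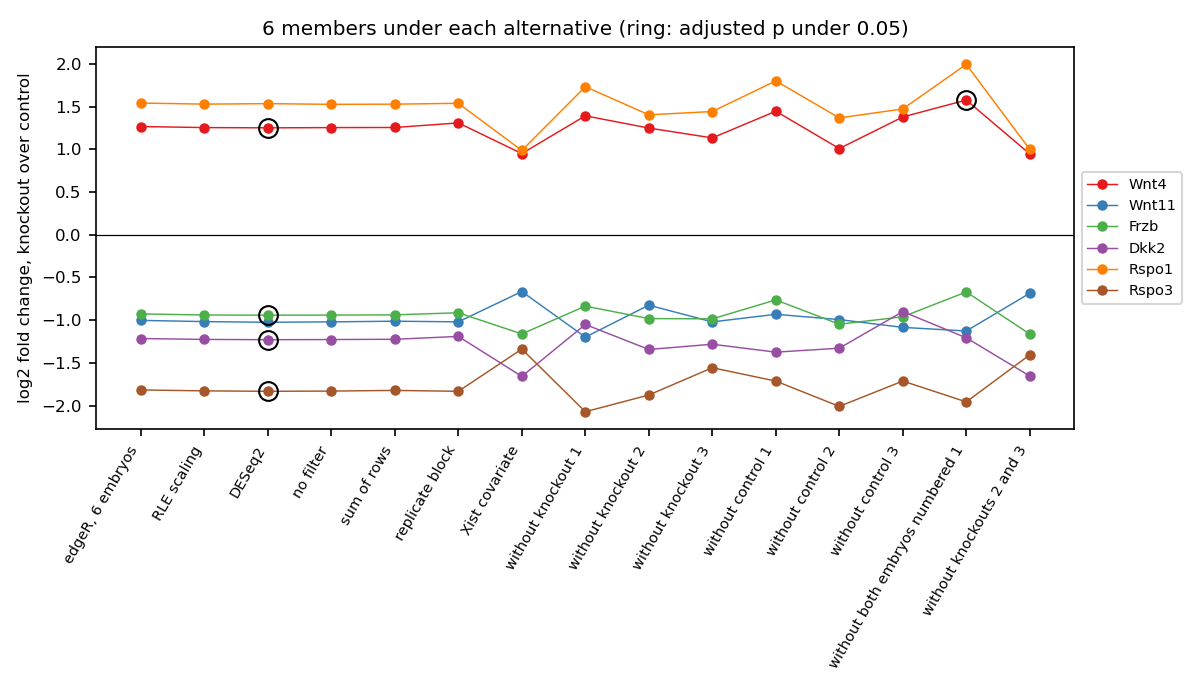
Log2 fold change, knockout over control (y axis), of the 6 members under the analysis of 6 embryos and each alternative (x axis), 1 coloured line per member, with rings where the adjusted p was under 0.05. No line crosses 0, which the choice of members with groups apart largely fixed. Wnt4 is ringed under DESeq2 and without both embryos numbered 1, and Frzb, Dkk2 and Rspo3 under DESeq2.

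Rows of different transcripts could be compared for few members, since 43 had 1 row in the table. As Esrp1 sets splicing, the share of a gene's main row that a further row lacked was compared over 1774 pairs of rows, of which 0 passed in limma with Benjamini-Hochberg adjustment and 92 had an unadjusted p under 0.05 (0% called). For Nkd1 this share was 4.54%, 4.88% and 4.46% in knockouts, against 3.91%, 4.05% and 6.65% in controls (log2 odds difference -0.03 ± 0.24, SE, adjusted p = 0.981). For the first further row of Wnt7b it was 5.31%, 6.59% and 6.25% in knockouts, against 6.21%, 6.32% and 5.51% in controls (0.01 ± 0.15, adjusted p = 0.990). The shares overlapped between groups in both genes, and the second further row of Wnt7b differed by -0.15 ± 0.19 (adjusted p = 0.956). Exchanges of exons that leave these shares equal would be missed.

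Beyond the members, 49 further pathway genes were listed by role, of which 38 were tested and 0 passed in edgeR's quasi-likelihood test, with 4 at an unadjusted p under 0.05 (10.5%, beside 4.77% of all genes) and 1, Gpc3, called by DESeq2. The glypican genes Gpc3 and Gpc4, whose products are heparan sulfate proteoglycans that hold secreted ligands at the cell surface, neighbour each other on chromosome X (52272426 to 52613974 and 52051007 to 52164923). Gpc3 had 352, 413 and 465 CPM in knockouts, against 214, 180 and 222 CPM in controls. The groups stood wide apart, with a log2 fold change of 1.00 ± 0.15 (SE, adjusted p = 0.0751, and 1.84e-06 in DESeq2, in a range of up to 0.326 over the alternatives). Gpc4 had 71.0, 92.1 and 126 CPM in knockouts, against 68.1, 40.1 and 49.0 CPM in controls (log2 fold change 0.88 ± 0.25, SE, adjusted p = 0.495). Without both embryos numbered 1, where sex and genotype coincide, Gpc3, Gpc4 and the receptor gene Fzd6 passed edgeR's test. The log2 fold change of Gpc4 was 1.28 there (adjusted p = 0.0113, in a range of 0.0113 to 1.0), 0.415 with Xist as a covariate and 0.43 for knockout 1 alone against the controls, while that of Gpc3 was 1.12, 0.76 and 0.77 in these settings. Of the other receptors, Ror1, which binds Wnt5a, had 41.2, 32.5 and 37.4 CPM in knockouts, against 68.7, 52.4 and 47.6 CPM in controls (-0.60 ± 0.17, SE, adjusted p = 0.495). The target gene Cd44, a hyaluronan receptor, had 17.5, 20.0 and 18.0 CPM in knockouts, against 30.1, 22.2 and 28.0 CPM in controls (-0.53 ± 0.16, SE, adjusted p = 0.570). Both had all knockouts below all controls. The 16 genes of the destruction complex, Dishevelled and the nuclear factors kept within -0.24 to 0.14, with beta-catenin itself (Ctnnb1) at -0.04 and the kinase gene Csnk1a1, whose groups stood apart by a small step, at -0.17 ± 0.14 (SE, adjusted p = 0.994). Wls, which carries Wnts out of the cell, was at -0.03 ± 0.16 (SE).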

How the data were processed

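Polyadenylated RNA of cochlear epithelium was sequenced in 12 libraries, 2 for each of 6 embryos. The deposited counts are reads per RefSeq transcript, 1 column per embryo and not normalised, per the file headers. The FPKM values were scaled by length and library size by the authors, per the file headers. The log2 fold changes, p-values and FDR in the authors' deposited table come from the authors' own edgeR comparison of transcript rows, per the file headers. The submitters' processing notes name edgeR and mm10. Aligner, counter and the use of strand in counting: not given in the sources used here. Reads of a gene and of an antisense partner therefore cannot be told apart. A further 14 named columns, 6 of them per embryo and 2 of group means, were not used.

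The 28644 rows held 22869 symbols, 3705 of them with more than 1 row, and the row with most reads stood for its gene. Genes were kept with filterByExpr (minimum count 10), scaled by TMM and tested with edgeR 4.0.16 (quasi-likelihood F test, R 4.3.3), knockout over control, with Benjamini-Hochberg adjustment over 14717 genes and a threshold of 0.05. The SE was computed as log2 fold change, without its sign, divided by √F. Expression levels are TMM-scaled CPM from the counts and, between genes, the deposited FPKM. Read floors of 3 counts cover counting error only and were scaled to reads on genes without TMM. Pairs of rows (at least 60 reads) were compared with limma 3.58.1 on log2 odds (pseudocount 0.5), and DESeq2 1.42.0 was an alternative. The scripts were tested on simulated data. There edgeR's test recovered 58 of 100 genes changed 2-fold and 92 of 100 changed 4-fold, with 5 false calls. Promoter windows and gene coordinates came from RefSeq on GRCm38.p6, the assembly of mm10.

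Members, lists and tests were chosen with earlier results of these data known. Full values are given for members with an unadjusted p under 0.05 and groups apart, and in each role for the member with the highest FPKM and that with the smallest p; of each list of other pathway genes, for the gene with the smallest p and those with an unadjusted p under 0.05. Other genes were chosen after their values were seen.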

Additional observations from a re-analysis of the deposited data

How the results depend on the processing

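With 3 embryos a group, calls over all genes depended on tool and embryos. edgeR called 22 genes, DESeq2 166, the fit with Xist as a covariate 5, the fit without both embryos numbered 1 159, that without knockouts 2 and 3 0, and the fits leaving out 1 embryo 0 to 30. Whether equal numbers mark paired embryos is not stated. Correlations of same-numbered embryos were 0.0768, 0.177 and 0.0288, and those of differently numbered ones ran from -0.224 to 0.158. With the number as a replicate block 6 genes were called. Members called were 0 in edgeR, 4 in DESeq2 and 1 without both embryos numbered 1. Other pathway genes called were 0 in edgeR, 1 in DESeq2, 1 with no filter on low counts and 3 without both embryos numbered 1. The Esrp1 fall missed the threshold with the replicate block (log2 fold change -2.0), with the Xist covariate (-2.36), without knockouts 2 and 3 (-2.36) and in 4 fits that left out 1 embryo (-2.23 to -1.71 over all 6). Tested members with groups apart numbered 10 in FPKM (9.48% of all genes did so) and 6 in CPM (9.84%). For 13 named members, 182 values under alternatives gave 171 with direction and call kept, 5 that gained a call and 6 that changed sign. The members chosen for groups apart could hardly change sign when embryos were left out. The sign changes were those of Fzd7 (-0.42 with the Xist covariate, -0.40 without knockouts 2 and 3), Sfrp1 (0.13 without both embryos numbered 1), and, with 1 embryo left out, Fzd7 (-0.15 without knockout 3 and -0.07 without control 2, in a range of -0.15 to 0.25) and Lef1 (0.08 without control 2, in a range of -0.44 to 0.082). The cause was not tested. No row pair was called under any alternative. Members under about 1 CPM rest on few reads, and differences there could be missed at this depth. A limit of detection was not computed, and 6 members were too low to test.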
